A study of Mus musculus with 2 samples.

Results

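The immediate early genes described here were *Fos*, *Fosb*, *Jun*, *Junb*, *Jund*, *Egr1*, *Atf3*, *Ier2*, *Ier3* and *Nr4a1*. They were found by gene symbol, without use of their values, and are 10 of the 33696 features of the count matrices. Droplet-based single-cell RNA sequencing, which counts captured RNA molecules by unique molecular identifiers (UMIs), was performed on suprarenal abdominal aortas of 5-month-old male C57BL/6J mice. The Control library came from mice given normal saline. The AngII+HS library came from mice given angiotensin II together with high salt, a model of abdominal aortic aneurysm, and both were taken at day 28. Each condition had 1 library of pooled aortas. The design text names 5 mice per library, whereas the protocol names 1 mouse for the Control and 2 mice for AngII+HS. The tissue was minced and digested with collagenases, hyaluronidase and DNase during 0.5 h at 37 °C, a step that both libraries share. With 1 library per condition there was no test between conditions, and every interval below is an exact 95% interval that covers counting error only. Mice, digestion and condition cannot be told apart in these libraries.

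Immediate early genes are transcribed soon after a stimulus by factors that already sit in the nucleus, such as SRF with its Elk partners and CREB, without the need for new protein. FOS and JUN proteins pair through leucine zippers to form the transcription factor AP-1, while EGR1 and NR4A1 bind other DNA sites, and IER3 takes part in survival and stress responses. Angiotensin II and stretch are classical inducers of *Fos* and *Egr1* in vascular smooth muscle cells (VSMCs), and enzymatic dissociation of tissue is also known to induce these genes.

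The promoters of the genes that were at least 2-fold lower in VSMCs of the AngII+HS library are shown, since several of them carry the core of the CREB site. That of *Ier3* is added, the gene that was at least 2-fold higher in a cell type, namely neutrophils. In VSMCs *Ier3* was itself lower (log2 ratio of AngII+HS over Control -0.78). *Jun* was lower in VSMCs without this core, and *Junb*, which holds it, was higher in neutrophils (0.94). A link of the core with direction was not tested. RefSeq promoter entries (GRCm38.p6) were matched for 8 of the 10 genes, and the promoters of *Egr1* and *Ier2* were not examined. Each line holds the 150 bases before the transcription start, 5′ to 3′ on the strand of the gene, and capitals mark TGACG on either strand. The stretches lie at chr12:85473740-85473889 (*Fos*, + strand), chr7:19310046-19310195 (*Fosb*, - strand), chr4:95052223-95052372 (*Jun*, - strand), chr8:84978749-84978898 (*Junb*, - strand), chr1:191183334-191183483 (*Atf3*, - strand), chr15:101266696-101266845 (*Nr4a1*, + strand) and chr17:35821563-35821712 (*Ier3*, + strand).
Fos: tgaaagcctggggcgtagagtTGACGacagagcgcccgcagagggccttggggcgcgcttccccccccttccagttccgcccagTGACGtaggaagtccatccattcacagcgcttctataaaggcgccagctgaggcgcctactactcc
Fosb: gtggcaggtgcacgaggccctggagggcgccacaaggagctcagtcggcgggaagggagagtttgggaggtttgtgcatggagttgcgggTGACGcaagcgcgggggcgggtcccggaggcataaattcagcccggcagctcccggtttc
Jun: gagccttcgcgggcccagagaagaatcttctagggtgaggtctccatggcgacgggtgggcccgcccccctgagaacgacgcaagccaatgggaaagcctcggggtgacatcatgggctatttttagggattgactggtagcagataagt
Junb: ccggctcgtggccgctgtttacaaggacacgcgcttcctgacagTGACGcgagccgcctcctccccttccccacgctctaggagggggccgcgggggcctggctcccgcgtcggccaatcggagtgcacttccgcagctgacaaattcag
Atf3: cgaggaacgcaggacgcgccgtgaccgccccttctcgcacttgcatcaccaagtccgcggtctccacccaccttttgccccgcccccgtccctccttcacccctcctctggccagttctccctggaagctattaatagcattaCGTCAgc
Nr4a1: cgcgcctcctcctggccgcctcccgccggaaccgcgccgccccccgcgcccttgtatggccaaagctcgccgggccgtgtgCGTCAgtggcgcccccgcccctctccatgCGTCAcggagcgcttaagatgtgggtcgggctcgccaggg
Ier3: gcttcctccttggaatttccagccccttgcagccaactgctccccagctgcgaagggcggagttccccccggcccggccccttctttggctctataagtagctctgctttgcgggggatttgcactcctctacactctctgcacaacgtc

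Within 250 bases upstream of the start, TGACG on either strand was present in *Fos*, *Fosb*, *Junb*, *Atf3* and *Nr4a1*, which are 5 of the 8 genes examined, while 17.9% of 27025 mouse promoters of this length held it. *Nr4a1* held 4 matches and *Fos* held 2. GCGNGGGCG, the letters bound by EGR1, was present in *Fosb* and *Nr4a1* and in 4.65% of all promoters. TGANTCA, a form of the letters bound by AP-1, and the strict CArG box bound by SRF were in none of the 8 stretches. They were in 6.87% and 1.40% of all promoters. Only exact letters within 250 bases were searched, so other forms of a site and sites further upstream would be missed. The *Jun* stretch, for example, holds TGACATCA, which neither the TGANTCA nor the TGACG search counts. Whether these genes have AP-1 or SRF sites can thus not be read from these absences. No match overlapped another. These are matches of letters in a short window and not measured sites.

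The Control matrix held 11448 barcodes with 86618995 UMIs and the AngII+HS matrix 24804 barcodes with 117146856 UMIs. After the cell filter and doublet removal, 10269 and 19734 cells were retained, with medians of 7274 and 3065.5 UMIs and of 3.57% and 1.06% mitochondrial UMIs per cell. The recorded barcode lists fit, by their length, the matrix of the respective other library, and 67 barcodes occur in both lists. Each matrix was taken as the sample it is recorded under, and a swap would reverse every direction below. Clusters were made without the 10 genes among the variable genes and named from markers. In 11 cell types, each library had at least 30 cells, from 36 dendritic cells (DCs) and 99 neutrophils in the Control library to 5464 Control VSMCs. Of the retained cells, VSMCs made up 53.2% (Control) and 4.50% (AngII+HS), neutrophils 0.964% and 23.6%, and macrophages 4.68% and 22.8%. Loss of VSMCs and entry of neutrophils and macrophages are known features of the aneurysmal wall, and the matrix recorded as AngII+HS is the one with fewer VSMCs and more of both leukocytes. Levels are given as UMIs of a gene in the pooled cells of a type, scaled to 1e+06 UMIs (CPM), and log2 ratios are AngII+HS over Control.

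The summed level of the 10 genes was lower in the AngII+HS library in 9 of 11 cell types and higher in neutrophils and, slightly, in T cells. The median log2 ratio over cell types was -0.48. The difference was largest in VSMCs, the contractile cells of the aortic wall, and smallest in size in T cells and fibroblasts. In all retained cells together the summed level was 24202 CPM in the Control and 11134 CPM in the AngII+HS library, a log2 ratio of -1.12, which also holds the change in the share of VSMCs.

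In VSMCs the summed level was 27358 CPM in the Control and 12852 CPM in the AngII+HS library (log2 ratio -1.09, interval -1.10 to -1.08). In pericytes, the contractile cells of small vessels, it was 20446 and 11721 CPM (-0.80, interval -0.83 to -0.77). The pericyte cluster scored 2.09 on the pericyte markers and 1.94 on the next marker list. Its VSMC markers stood at 108.6% of the VSMC level in the Control and 52.2% in the AngII+HS library. The pericyte pool may thus differ in make-up between the libraries, which was not tested. In vascular endothelial cells (VECs) the summed level was 17079.5 and 11661 CPM (-0.55, interval -0.57 to -0.54), a ratio that was -0.19 with cells of 2000 to 8000 UMIs and -0.24 with each cell thinned to 1000 UMIs. In lymphatic endothelial cells (LECs) it was 21733 and 15562 CPM (-0.48, interval -0.51 to -0.45). Vascular wall cells of the AngII+HS library thus had the lower level in each of these types, and VSMCs moved from the highest of the 11 Control types to the fourth in the AngII+HS library. Fibroblasts differed little, with 16240.0 and 15069 CPM (-0.11), a ratio that was 0.12 with TMM factors and 0.06 with cells of 2000 to 8000 UMIs. Neural cells, which here express Schwann cell markers, had 23275 and 19999 CPM (-0.22) and the highest summed level of the AngII+HS library.

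Among immune cells, macrophages had a summed level of 11428 CPM in the Control and 7705 CPM in the AngII+HS library (-0.57, interval -0.59 to -0.55), a ratio that turned to 0.16 when the libraries were merged without integration. DCs had 5992 and 4178 CPM (-0.52, interval -0.62 to -0.42), and B cells 6185 and 4847 CPM (-0.35, interval -0.42 to -0.28). T cells had 4968 and 5173 CPM (0.06, interval 0.00 to 0.12), a ratio that was -0.61 when no doublets were removed. These lymphocytes and DCs held the lowest levels of both libraries among the cell types compared. Neutrophils went the other way, with 7151 CPM in the Control and 11032 CPM in the AngII+HS library (0.63, interval 0.56 to 0.69), where the median over all 3176 genes tested in neutrophils was 0.21.

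**Figure D1:**
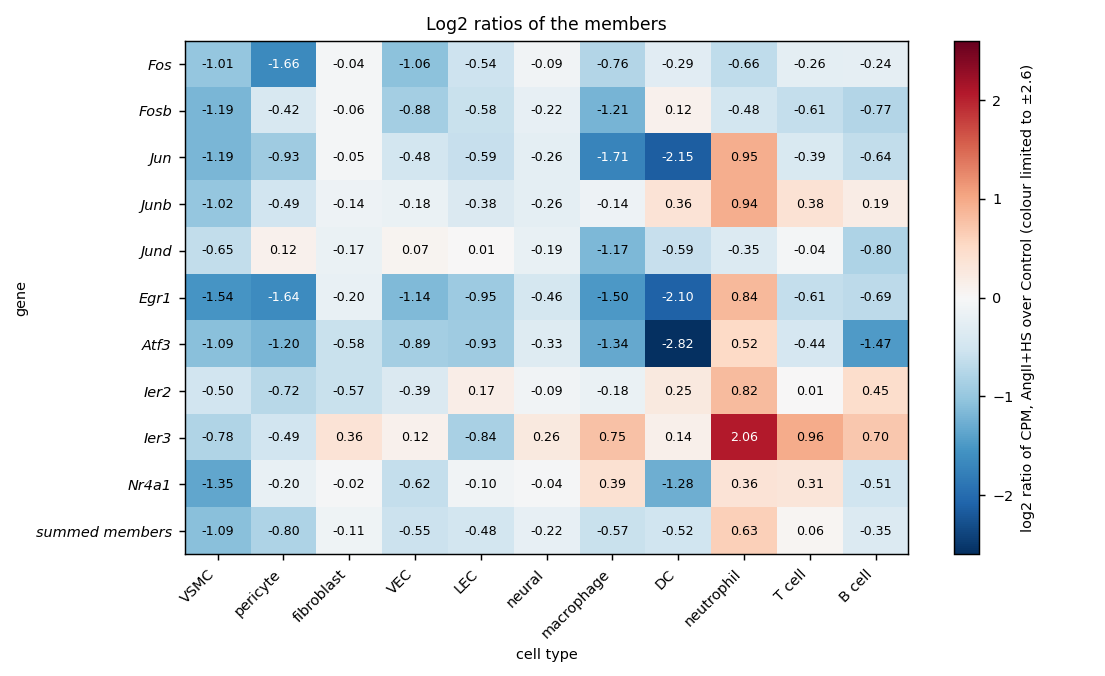
Log2 ratios of CPM, AngII+HS over Control, for the 10 genes and their sum (rows) in the 11 cell types (columns), blue where the AngII+HS level was lower and red where it was higher. The VSMC column is blue throughout, from -0.50 for *Ier2* to -1.54 for *Egr1*, the fibroblast column is pale, and *Ier3* in neutrophils (2.06) is the reddest cell.

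Each of the 110 pairs of gene and cell type had at least 10 UMIs expected in the smaller pool. Of these pairs, 22 (20%) were at least 2-fold lower and 1 (0.909%) at least 2-fold higher in the AngII+HS library. Over all genes that passed the same filter in the same cell types, 5.79% of 89947 pairs were lower and 7.42% higher.

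The lower pairs lay mainly in VSMCs and macrophages. In VSMCs 7 of the 10 genes (*Fos*, *Fosb*, *Jun*, *Junb*, *Egr1*, *Atf3* and *Nr4a1*) were at least 2-fold lower and none higher, beside 6.86% of all genes lower and 3.19% higher. In macrophages 5 (*Fosb*, *Jun*, *Jund*, *Egr1* and *Atf3*) were lower and none higher, beside 11.0% and 9.38%. In DCs, where 1 of 36 Control cells held 63 of the 119 *Atf3* UMIs, 4 (*Jun*, *Egr1*, *Atf3* and *Nr4a1*) were lower and none higher, beside 6.46% and 13.7%. The share of lower genes among the 10 was above that of all genes in each of these types. When the libraries were merged without integration, *Egr1* and *Nr4a1* stayed past 2-fold in VSMCs and *Jun* in macrophages. *Fos*, *Fosb*, *Jun*, *Junb* and *Atf3* then lay between -0.96 and -0.64 in VSMCs, and DCs were not compared. Only 1286 Control and 750 AngII+HS cells were named VSMCs without integration, against 5464 and 888 with it. In pericytes 3 (*Fos*, *Egr1* and *Atf3*) were lower and none higher, beside 5.59% and 8.68%, and in VECs 2 (*Fos* and *Egr1*) were lower and none higher, beside 5.5% and 7.76%. Both VEC calls were lost in cells of 2000 to 8000 UMIs (-0.55 for *Fos* and -0.65 for *Egr1*) and with each cell thinned to 1000 UMIs (-0.67 and -0.63). B cells had 1 lower gene (*Atf3*) and none higher, beside 1.68% and 5.94%. Neutrophils had 1 higher gene (*Ier3*) and none lower, beside 20.8% and 9.38%, so that the higher share lay below that of all genes. No gene passed 2-fold either way in fibroblasts (6.71% of all genes higher and 6.78% lower), LECs (7.17% and 3.91%), neural cells (4.82% and 2.3%) or T cells (6.74% and 1.88%). These are counts of pooled ratios and not of tested genes.

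*Fos*, which forms stable AP-1 dimers with JUN proteins, was lower in the AngII+HS library in the pools of 11 of 11 cell types. This direction was kept in every alternative that could be computed in 6 of them, namely VSMCs, pericytes, VECs, LECs, DCs and neutrophils. It turned in at least 1 alternative in the other 5, up to 0.19 in fibroblasts, 0.01 in neural cells, 0.14 in macrophages, 0.38 in T cells and 1.13 in B cells. Its level in VSMCs was 7703 CPM in the Control and 3828 CPM in the AngII+HS library (log2 ratio -1.01, interval -1.03 to -0.99), which lies at the 2-fold limit. In pericytes it was 4789.6 and 1519 CPM (-1.66, interval -1.73 to -1.58), the lowest of its ratios. VECs had 3419.9 and 1636 CPM (-1.06). At like depth VECs and VSMCs came apart, with -0.55 and -1.34 in cells of 2000 to 8000 UMIs and -0.67 and -1.19 after thinning. In macrophages the level was 1311 and 776 CPM (-0.76) and in neutrophils 666 and 421 CPM (-0.66). Fibroblasts, with 2331 and 2264 CPM (-0.04), and neural cells, with 5494 and 5152 CPM (-0.09), hardly differed. The intervals of DCs and B cells spanned 0. Over cell types the Control level was highest in VSMCs and lowest in B cells (414 CPM), and in the AngII+HS library it was highest in neural cells and lowest in B cells (349.9 CPM). Of the 10 pairs of neighbours in that order, intervals overlapped for neutrophils and DCs and for T and B cells in the Control library, and for T and B cells in the AngII+HS library.

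*Fosb*, a FOS family member with a truncated splice form that builds up on repeated stimulation, was lower in 10 of 11 cell types. Its level in VSMCs was 2965 CPM in the Control and 1300.2 CPM in the AngII+HS library (-1.19, interval -1.22 to -1.16). In macrophages it was 1231 and 533 CPM (-1.21, interval -1.27 to -1.15). These were the 2 cell types past 2-fold. VECs had 2564 and 1397 CPM (-0.88), and fibroblasts 2577 and 2475 CPM (-0.06). The exception to the lower levels was DCs, with 459.5 and 498 CPM (0.12, interval -0.22 to 0.47), where counting error covers either direction. LECs held the highest Control level, 3532 CPM, and fibroblasts the highest AngII+HS level.

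*Jun*, the main partner of FOS proteins, was lower in 10 of 11 cell types and higher in neutrophils. In VSMCs it had 2379 CPM in the Control and 1044 CPM in the AngII+HS library (-1.19, interval -1.22 to -1.15). In macrophages it had 884 and 270.5 CPM (-1.71, interval -1.78 to -1.63), and in DCs 484 and 109 CPM (-2.15, interval -2.51 to -1.77). The DC value rests on 78 Control UMIs, of which 1 cell held 33. Neutrophils had 324 and 626 CPM (0.95, interval 0.65 to 1.27), from 88 Control UMIs. Fibroblasts again differed little, with 1247 and 1201 CPM (-0.05). Neural cells held the highest level in both libraries, 3213 and 2680.3 CPM.

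*Junb*, a JUN protein that restrains proliferation and is abundant in myeloid cells, was 2-fold lower in VSMCs only among the cell types compared, with 2604 and 1288 CPM (-1.02, interval -1.05 to -0.98). It was lower in 7 and higher in 4 cell types, and the 4 were DCs, neutrophils, T cells and B cells. Neutrophils had 2532 and 4845 CPM (0.94, interval 0.83 to 1.05), the highest *Junb* level of the pools compared. T cells had 1620.1 and 2111 CPM (0.38, interval 0.28 to 0.48). Macrophages, unlike for *Jun*, had nearly equal levels of 2374 and 2161 CPM (-0.14). VSMCs held the lowest *Junb* level of the AngII+HS library among the cell types compared.

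*Jund*, which is constitutively expressed rather than sharply induced, had the smallest range outside the macrophages. In macrophages it was 2202 CPM in the Control and 976 CPM in the AngII+HS library (-1.17, interval -1.22 to -1.13). In VSMCs it was 2252 and 1439 CPM (-0.65), and in B cells 1838 and 1059 CPM (-0.80). The levels were nearly equal in LECs, with 3103 and 3115 CPM (0.01), in T cells (-0.04) and in VECs (0.07). Pericytes had 1849 and 2003 CPM (0.12), in contrast to *Fos* and *Egr1* in the same pools.

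**Figure D2:**
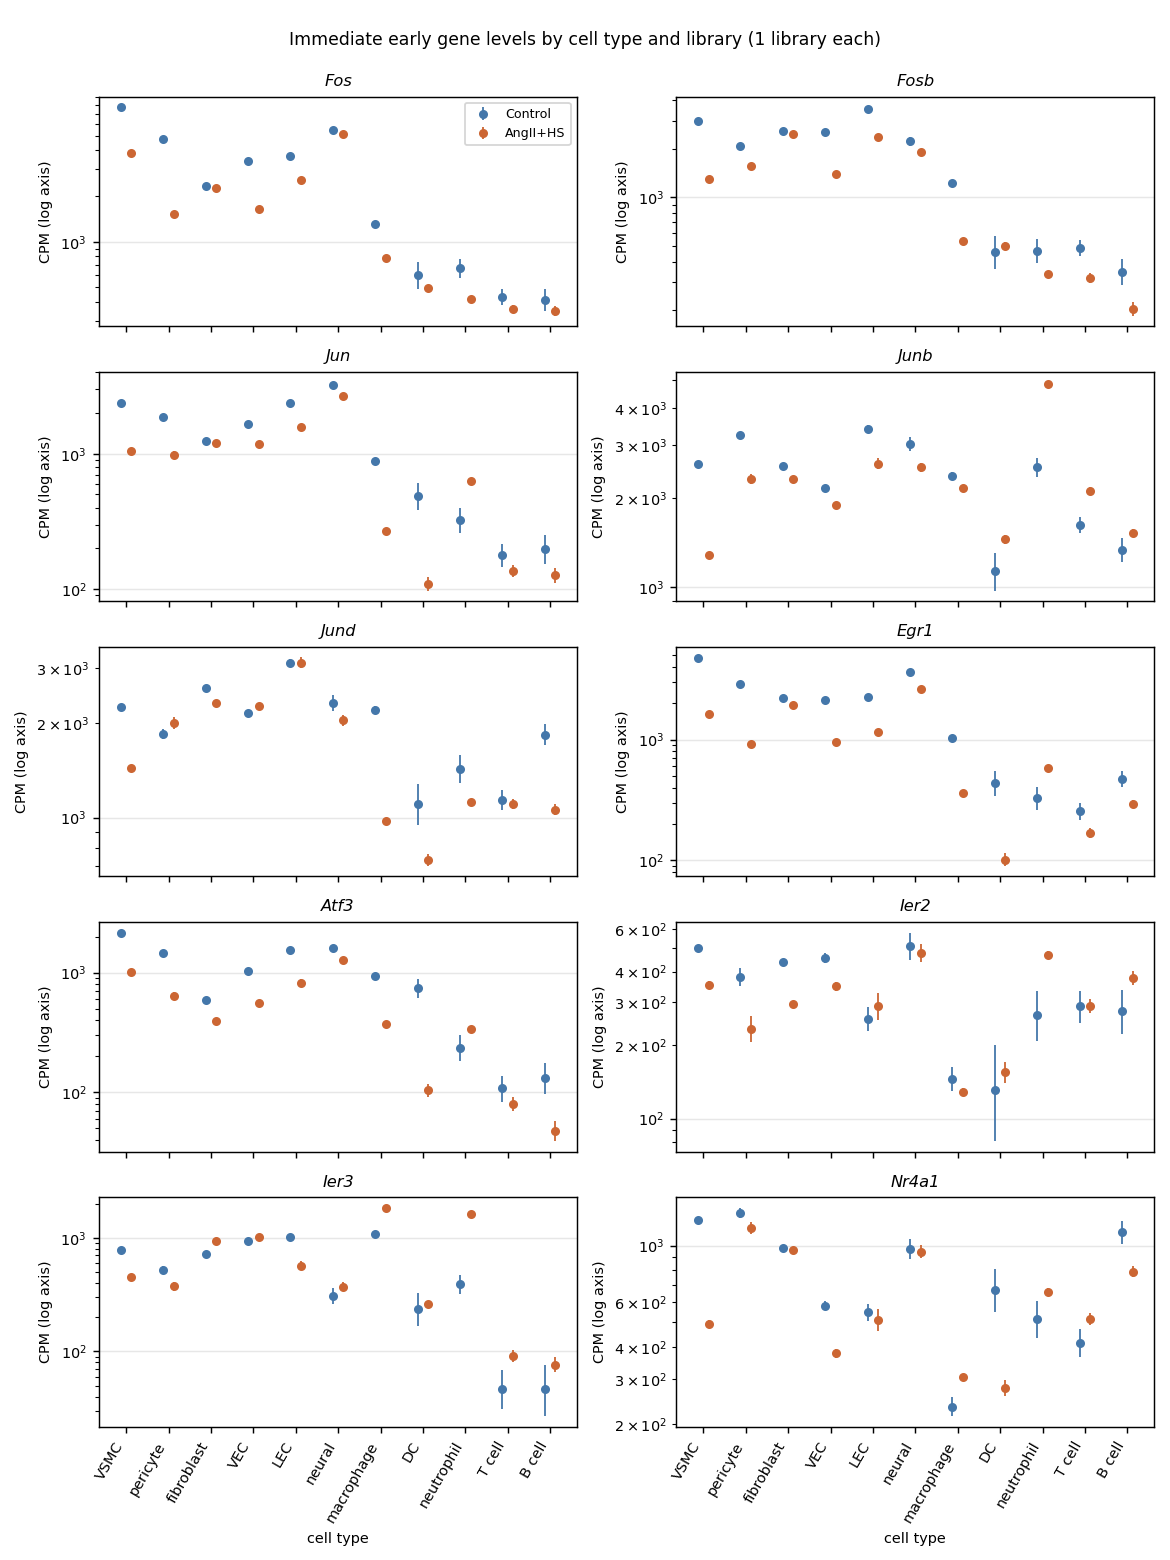
CPM of each gene (panels, log axes) in the 11 cell types for the Control (blue) and the AngII+HS library (orange), with exact 95% Poisson intervals of the counts as bars, which are smaller than the points where none is seen. In the *Egr1* panel the VSMC points lie at 4777 and 1641 CPM and the neutrophil points at 328 and 584 CPM in the reverse order.

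*Egr1*, a zinc finger factor induced by shear stress and growth factors, was at least 2-fold lower in 5 cell types. In VSMCs it had 4777 CPM in the Control and 1641 CPM in the AngII+HS library (-1.54, interval -1.57 to -1.51). Pericytes had 2874 and 921 CPM (-1.64), VECs 2113 and 959 CPM (-1.14), and macrophages 1027 and 363 CPM (-1.50). LECs, with 2236 and 1158 CPM (-0.95), lay just inside the limit. DCs had 435 and 101 CPM (-2.10, interval -2.49 to -1.70), from 70 Control UMIs. *Egr1* had the lowest median log2 ratio over cell types among the 10 genes, -0.95. The direction was again reversed in neutrophils, with 328 and 584 CPM (0.84, interval 0.53 to 1.16), and the fibroblast levels were 2212 and 1923 CPM (-0.20).

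*Nr4a1*, the orphan nuclear receptor Nur77 that is induced by lymphocyte receptors and by vascular stress, differed by cell type in direction. VSMCs had 1255 CPM in the Control and 494 CPM in the AngII+HS library (-1.35, interval -1.40 to -1.29), and DCs 671 and 276 CPM (-1.28, interval -1.57 to -0.97). VECs had 582 and 379 CPM (-0.62) and B cells 1128 and 790.5 CPM (-0.51). Macrophages had the higher level in the AngII+HS library, with 234 and 307 CPM (0.39, interval 0.26 to 0.52). Neutrophils (0.36) and T cells (0.31) were also higher, with intervals above 0. This direction was kept in 17 of 17 alternatives in neutrophils but in 16 of 17 in macrophages and T cells, with lowest ratios of -0.15 and -0.35. Pericytes held the highest level in both libraries, 1345 and 1174 CPM, and differed little (-0.20) where *Fos* and *Egr1* were over 3-fold lower.

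*Atf3*, a CREB family repressor of inflammatory genes that is induced by stress, was lower in 10 of 11 cell types and at least 2-fold lower in 5. In VSMCs it had 2147 CPM in the Control and 1011 CPM in the AngII+HS library (-1.09, interval -1.12 to -1.05), and in pericytes 1469 and 640.5 CPM (-1.20). Macrophages had 941 and 372 CPM (-1.34, interval -1.41 to -1.27). DCs had 739 and 104 CPM (-2.82, interval -3.14 to -2.50), the lowest ratio of the 110 pairs. A single Control DC of 8920 UMIs held 63 of the 119 *Atf3* UMIs of its pool (52.9%), 33 of 78 for *Jun*, 20 of 70 for *Egr1* and 21 of 108 for *Nr4a1*. Without the top cell of each library, a setting chosen after the data were seen, the DC ratios were -1.88 for *Atf3*, -1.47 for *Jun*, -1.76 for *Egr1* and -1.07 for *Nr4a1*. Of the Control DCs thinned to 2000 UMIs, 4 of 21 had an *Atf3* UMI (19.0%, interval 5.45% to 41.9%) and 13.8% of the AngII+HS DCs, and for *Jun* it was 23.8% and 18.0%, so that the shares of cells differed by less than their counting error. B cells had 132 and 47.8 CPM (-1.47, interval -1.98 to -0.93) from 45 and 105 UMIs. In fibroblasts *Atf3* had 588 and 394 CPM (-0.58, interval -0.63 to -0.53), where *Fos* and *Jun* were near 0. Neutrophils were the exception, with 236 and 338 CPM (0.52, interval 0.16 to 0.90).

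*Ier2*, which codes for a nuclear protein of the immediate early response, did not pass 2-fold in any of the 11 cell types. VSMCs had 499 CPM in the Control and 353 CPM in the AngII+HS library (-0.50), and pericytes 382 and 233 CPM (-0.72, interval -0.94 to -0.50). Fibroblasts had 437 and 294 CPM (-0.57, interval -0.63 to -0.52), with an interval below 0 as in VSMCs and pericytes. B cells had 276 and 377 CPM (0.45, interval 0.14 to 0.77) and neutrophils 265 and 467 CPM (0.82, interval 0.48 to 1.18). The other intervals of higher ratios spanned 0, as did that of neural cells.

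*Ier3*, whose product limits apoptosis, was set apart from the other genes by its direction. It was higher in 8 of 11 cell types, with a median log2 ratio of 0.26. Neutrophils had 390.1 CPM in the Control and 1630.2 CPM in the AngII+HS library (2.06, interval 1.79 to 2.35), a 4.18-fold difference. Macrophages, which held the highest *Ier3* level of both libraries, had 1079 and 1818 CPM (0.75, interval 0.69 to 0.81). T cells had 47.2 and 92.0 CPM (0.96, interval 0.40 to 1.58), from 28 Control UMIs. Fibroblasts had 725 and 929 CPM (0.36, interval 0.32 to 0.40). VSMCs (777 and 453 CPM, -0.78), pericytes (-0.49) and LECs (1023 and 570.4 CPM, -0.84) were lower.

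The number of cell types that kept the direction of a gene in every alternative that could be computed ran from 4 for *Jund* to 10 for *Atf3*. The differences were partly shared and partly not. When the squared log2 ratios of the 110 pairs were split, the common mean of -0.42 took 24.9% of the sum of squares, the differences between genes 20.5%, those between cell types 24.1% and the remainder, particular to a gene in a cell type, 30.5%. Without neutrophils and DCs, which had the fewest Control cells, the common mean was -0.47 and took 40.9%, cell types 16.6% and the remainder 22.1%. The medians of the 10 genes in fibroblasts (-0.10), T cells (-0.15) and neural cells (-0.20) were nearer 0 than those in VSMCs (-1.05) and macrophages (-0.96). In VSMCs 10 of 10 genes had an interval below 0, beside a median over all genes of -0.04. In pericytes 9 of 10 and in fibroblasts 8 of 10 had an interval below 0, with medians over all genes of 0.10 and -0.14, so that the fibroblast median of the 10 genes (-0.10) did not lie below that of all genes. In neutrophils 7 of 10 had a ratio above 0, each with an interval above 0. There 59.0% of all genes had a ratio above 0, with a median of 0.21.

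Clusters within a cell type gave the same picture for VSMCs and not for macrophages. The summed ratios of the 4 VSMC clusters, led by *Mylk4*, *Xirp1*, *Col19a1* and *Fgf14*, were -1.06, -0.90, -1.14 and -1.20. The VEC clusters led by *Fabp4* and by the arterial gene *Cytl1* had -0.67 and -0.39. The fibroblast clusters led by *Ptx3*, *Dio2* and *Comp* had -0.27, -0.06 and 0.04. Most Control macrophages (432 of 481) were in the cluster led by *C1qa*, a complement gene of macrophages. The AngII+HS macrophages were mainly in this cluster (2327 of 4506) and in the cluster led by *Arg1* (2065), which had 40 Control cells. Whether the *C1qa* cluster holds cells of the same kind in both libraries was not tested. In the *C1qa* cluster the summed level was 12851 CPM in the Control and 8795 CPM in the AngII+HS library (-0.55), and in the *Arg1* cluster 4998 and 6711 CPM (0.43). The *Arg1* cluster had the lower level in each library. When the libraries were merged without integration, 74 Control and 3824 AngII+HS cells were named macrophages and their summed ratio was 0.16. In the *C1qa* cluster *Jun* (-1.74), *Egr1* (-1.15), *Jund* (-1.02) and *Atf3* (-1.01) remained at least 2-fold lower and *Fosb* was at -0.99, whereas in the *Arg1* cluster *Jun* was at -0.04 and *Egr1* at 0.06, with intervals that spanned 0. *Ier3* was at 0.23 in the *C1qa* and 1.26 in the *Arg1* cluster. *Nr4a1* was at 0.80 and -0.57 in the same clusters.

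**Figure D3:**
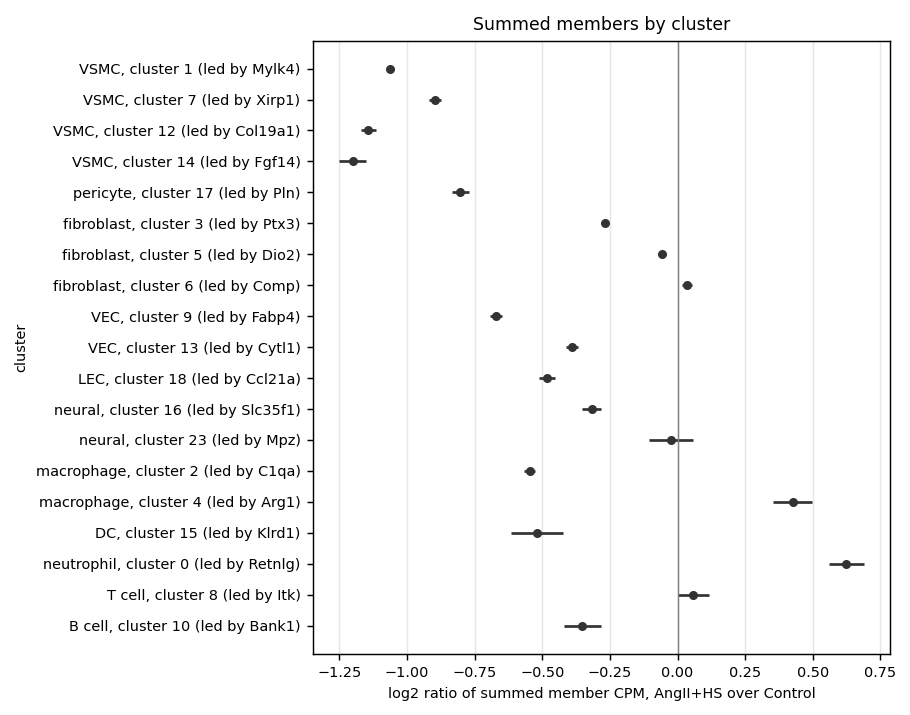
Log2 ratio of the summed CPM of the 10 genes, AngII+HS over Control, in each cluster with at least 20 cells in each library (rows, named by cell type and leading gene), with exact 95% intervals for counting error. The 4 VSMC clusters lie between -1.20 and -0.90, and the macrophage clusters lie on either side of 0, at -0.55 (led by *C1qa*) and 0.43 (led by *Arg1*).

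Plasma cells and the unnamed clusters were not among the cell types compared, and clusters with cells in 1 condition had no ratio of their own. Plasma cells were present in the AngII+HS library only (165 cells) and had a summed level of 2609.6 CPM, below each named type of that library. A fibroblast cluster led by *Prg4*, of 163 AngII+HS cells, had 8929 CPM, and a neutrophil cluster of 211 AngII+HS cells had 11337 CPM. The cells of both clusters were part of the AngII+HS fibroblast and neutrophil pools above. The *Prg4* cluster, with 4.45 times the median depth, thus weighed on the fibroblast pool. The unnamed cluster led by *Igfbp6* had 17732 CPM in the Control and 16388 CPM in the AngII+HS library, close to fibroblasts.

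Single cells were compared after each was thinned to 1000 UMIs, since the cells of the libraries differed in depth. The median VSMC had 26 UMIs of the 10 genes in the Control and 9 in the AngII+HS cells. From the 10th to the 90th percentile, Control VSMCs had 11 to 43 UMIs and AngII+HS VSMCs 2 to 26. The lower level thus extended over most cells, and the 10% of cells with most of these UMIs held 18.8% of them in the Control and 27.5% in the AngII+HS library. Fibroblasts had a median of 14 in both libraries, VECs 12 and 11, and macrophages 11 and 7. At least 1 UMI of the 10 genes was found in 99.8% of Control and 97.7% of AngII+HS VSMCs at this depth.

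**Figure D4:**
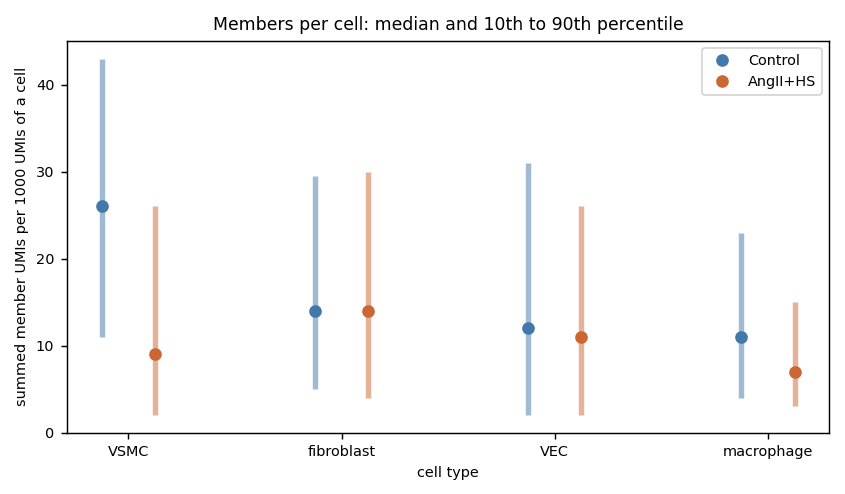
UMIs of the 10 genes per 1000 UMIs of a cell, with the median over cells (points) and the range from the 10th to the 90th percentile (bars), in the 4 cell types with at least 200 cells in each library. The VSMC median is 26 in the Control and 9 in the AngII+HS library, and the fibroblast medians are both 14.

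The share of thinned VSMCs with a *Fos* UMI was 96.5% (5210 of 5397 cells, interval 96.0% to 97.0%) in the Control and 78.0% (655 of 840 cells, interval 75.02% to 80.7%) in the AngII+HS library, and it was 99.1% and 90.8% without thinning, at median depths of 9698.5 and 6987.5 UMIs. For *Egr1* the thinned shares were 92.2% and 62.0%. After thinning, 26.8% of 97 Control neutrophils (interval 18.3% to 36.8%) but 67.7% of 3810 neutrophils of the AngII+HS library (interval 66.2% to 69.2%) had an *Ier3* UMI, and unthinned in 59.6% and 73.5%, at median depths of 2739 and 1266 UMIs. The lowest share of any cell type, in B cells, was 3.06% in the Control and 7.84% in the AngII+HS library for *Ier3*, and 39.8% and 28.2% for *Fos*. None of the 11 cell types lacks these genes, so no type gives a share that is background alone.

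Within the cell types examined, *Fos* and *Jun* varied together over cells. *Fos* with *Junb*, *Fos* with *Jund* and *Jun* with *Jund* did so less, and *Jun* with *Junb* was not computed. The Spearman correlation of *Fos* and *Jun* over thinned cells was 0.33 in 5397 Control and 0.41 in 840 AngII+HS VSMCs, 0.44 and 0.45 in fibroblasts, and 0.41 and 0.45 in VECs. In macrophages it was 0.44 in the Control and 0.18 in the AngII+HS library, where *Fos* and *Junb* gave 0.05 and 0.09. *Jun* and *Jund* gave -0.12 and 0.01 in macrophages. *Fos* and *Egr1* gave 0.39 and 0.44 in VSMCs. *Fos* and *Jund* gave 0.14 and 0.31 in VSMCs and 0.05 and 0.04 in fibroblasts. The summed level in VSMCs had a correlation of -0.28 and -0.29 with the mitochondrial share of the cell. Cells of a library share their preparation and are not replicates, so these are descriptions.

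Depth and mitochondrial share moved with the libraries as well, and free RNA was not measured apart from doublets. The median mitochondrial share was 4.28% in Control and 3.22% in AngII+HS VSMCs, and with cells under 3% mitochondrial UMIs the VSMC ratio of the summed genes was -1.002. With cells of 2000 to 8000 UMIs it was -1.27, while that of VECs went from -0.55 to -0.19 and that of fibroblasts from -0.11 to 0.06. Markers of VSMCs (*Myh11*, *Tagln*, *Acta2*, *Cnn1* and *Myocd*) were found in the other cell types, pericytes aside, at 1.64% to 4.94% of their VSMC level in the Control and 1.07% to 3.81% in the AngII+HS library. The VSMC level itself was 27444 CPM in the Control and 36490 CPM in the AngII+HS library. In CPM the markers were slightly higher in AngII+HS neutrophils (1354 and 1389) and T cells (783 and 814) and lower in the other types. If VSMC RNA carried the 10 genes in proportion, it would amount to 57.1% of the *Fos* level of Control neutrophils, 51.0% of that of Control T cells and 71.3% of that of Control B cells, but to 10.6% in Control fibroblasts and 6.90% in Control VECs. After subtraction of this share, the *Fos* ratio was 0.38 in T cells and 1.13 in B cells, and that of VECs was -1.03. In neutrophils it went from -0.66 to -0.05, in DCs from -0.29 to -0.0015 and in fibroblasts from -0.04 to 0.06. Under this assumption the direction turned in lymphocytes and, slightly, in fibroblasts, the difference nearly closed in neutrophils and DCs, and VECs changed little. The B cell value rests on what was left of 141 Control *Fos* UMIs, and no interval was computed after subtraction. The *Ier3* ratio in neutrophils was 2.20 after subtraction.

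Other early response genes were lower beside the 10 genes in VSMCs. Of this list of 35 genes, 15 of 35 were at least 2-fold lower and none higher in VSMCs, 42.9% beside 6.86% of all genes (median log2 ratio -0.88, beside -0.04 over all genes and -1.05 over the 10 genes). In neutrophils 8 of the 32 that passed the filter were higher and none lower, 25% beside 20.8% of all genes (median 0.60, beside 0.21 over all genes). In fibroblasts 1 was higher and none lower, with a median of -0.03. Over all cell types 32 of 364 pairs were lower (8.79%) and 19 higher (5.22%), near the 5.79% and 7.42% of all genes. The genes with the lowest median ratios were *Rhob*, a small GTPase (-0.55), and *Zfp36*, which degrades cytokine mRNA (-0.51), and those with the highest were *Cebpb*, a myeloid and acute phase factor (0.55), and *Tnfaip3*, an inhibitor of NF-kB (0.51).

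The other AP-1 subunits and relatives had 10 lower (7.41%) and 5 higher (3.70%) among 135 pairs, near or below the shares of all genes. In VSMCs 2 of 14 were lower and none higher (14.3% lower beside 6.86% of all genes), with a median of -0.52. In macrophages 3 of 15 were lower and none higher (20% lower beside 11.0% of all genes), with a median of -0.71. Medians were above 0 in pericytes (0.06), T cells (0.19) and neutrophils (0.26). *Fosl2*, a late FOS family member, had a median of 0.24 and reached 2.07 in B cells, while *Atf6* (-0.53) and *Mafg* (-0.46) had the lowest medians and *Atf5* (0.09) came next to *Fosl2*. The list that holds the upstream factors and kinases had 6 lower (3.61%) and 9 higher (5.42%) of 166 pairs, both below the shares of all genes, with a VSMC median of -0.06 and 1 of 17 genes lower. Its ends were *Rps6ka3* (-0.45), a kinase of CREB, *Mapk14* (-0.26), *Elk3* (0.42) and *Crem* (0.45). These factors act through phosphorylation, which RNA levels do not show.

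The feedback phosphatases and Sprouty genes, which are induced by ERK signaling and restrain it, had 8 lower (7.62%) and 15 higher (14.3%) of 105 pairs, beside 5.79% and 7.42% of all genes. *Dusp6* (-0.49) and *Dusp10* (-0.39) had the lowest medians, and *Dusp2* (0.32, up to 2.01 in neutrophils) and *Spry4* (0.20) the highest. Heat shock genes, which tissue dissociation is also known to induce, had 8 lower (4.97%) and 6 higher (3.73%) of 161 pairs, both below the shares of all genes. In VSMCs 0 of 16 heat shock genes had a ratio above 0 and 2 of 16 were at least 2-fold lower (*Dnajb1*, -1.01, and *Cacybp*, -1.01), 12.5% beside 6.86% of all genes, with a median of -0.64. In macrophages 5 of 15 were lower, 33.3% beside 11.0% of all genes (median -0.49). In VECs, where the 10 genes had a median of -0.55, the heat shock median was 0.39, and in fibroblasts it was 0.30. The ends of this list were *Dnajb4* (-0.31), *Dnajb1* (-0.27), *Cacybp* (0.35) and *Hspe1* (0.47). The heat shock genes were thus lower beside the 10 genes in VSMCs and macrophages and not in VECs, and their part in the result was not tested.

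**Figure D5:**
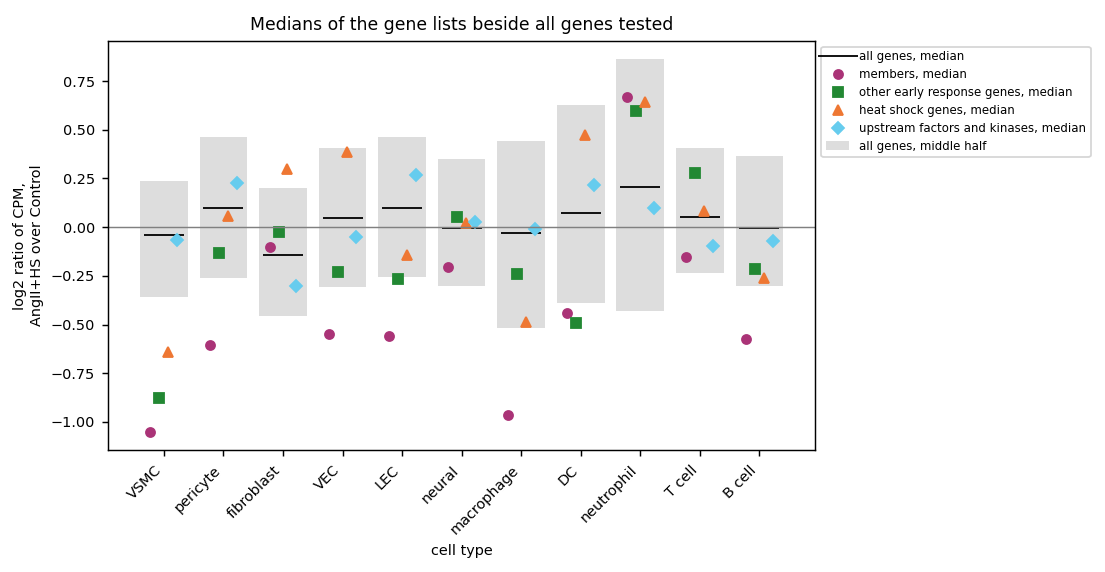
Median log2 ratio of CPM, AngII+HS over Control, of 4 gene lists in each cell type (symbols), beside the median (black line) and the range from the 25th to the 75th percentile (grey) over all genes tested. In VSMCs the 10 genes (members, -1.05), the other early response genes (-0.88) and the heat shock genes (-0.64) lie below the grey range and the upstream factors (-0.06) within it. In VECs the heat shock genes (0.39) lie above the median of all genes (0.05) but within the grey range, which ends at 0.41.

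The genes whose level followed the summed level of the 10 most closely were ranked by the Pearson correlation of log2(CPM + 10) over the 22 pools of cell type and library, among 8069 genes. *Sertad1* was first (0.92), followed by *Mafk*, *Nfia*, *Zfp503*, *Klf9*, *Ccn1*, *Spaca6*, *Rhob*, *Nfic* and *Amotl2* (0.90). *Mafk* belongs to the list of AP-1 relatives and *Ccn1*, a matricellular gene, and *Rhob* to the list of other early response genes. The 22 points share 2 libraries and their depth, and no p is given.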

How the data were processed

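Deposited were UMI counts per gene and cell barcode, which the authors made with Cell Ranger and left without normalization. The file headers name Cell Ranger 8.0.1 and the labels mm10, whereas the study's methods name another version and genome. Barcodes below 500 UMIs or 200 genes, or with 20% or more of mitochondrial UMIs, were dropped. Scrublet (scanpy 1.11.5) gave doublet scores, and the cells at the top were removed at a rate of 0.8% per 1000 cells (1019 Control and 4826 AngII+HS cells). Integration by anchors used Seurat 5.3.0 in R 4.3.3, with Matrix 1.6.5 and SeuratObject 5.2.0. It ran on 2000 variable genes, which left out the 10 genes, the other early response genes and the heat shock genes, with 30 components and Louvain resolution 0.8. A cluster was named after its highest-scoring marker list if 3 or more of its markers reached 10% of cells. Clusters of low depth without their own markers among the 10 leading genes stayed unnamed, as did a hemoglobin-led cluster, a choice made after its genes were seen.

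The UMIs of each cell type were pooled by library and scaled to CPM. A gene needed at least 10 UMIs expected in the smaller pool and was called at a 2-fold ratio. Ratios have exact binomial, levels exact Poisson and shares exact binomial (Clopper-Pearson) 95% intervals, all for counting error only, and a count of 0 was set to 3 UMIs. Python 3.11.15, numpy 2.4.6, scipy 1.17.1, pandas 2.3.3 and matplotlib 3.10.9 were used, and edgeR 4.0.16 (limma 3.58.1) gave TMM factors, without any test. Simulated pools with known changes were used to check the ratios. With 1 library per condition, no p-value was computed. Named beside the 10 genes were the 4 genes at the ends of each list (2 by highest and 2 by lowest median ratio, among those that passed in at least 6 of the cell types) and the 10 genes most alike in level. The leading genes of clusters fall outside this rule. The genes, lists and tests were chosen with earlier results of these data known. Promoters were taken from RefSeq and not from the files.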

Additional observations from a re-analysis of the deposited data

Results flagged for a closer look

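For 5 of the 10 genes the AngII+HS level was at least 1.5-fold higher in a cell type and at least 1.5-fold lower in another, a limit chosen after the values were seen. In each of them the highest ratio was that of neutrophils, and for *Ier3* T cells (0.96), macrophages (0.75) and B cells (0.70) were also past the limit. The share of all genes past both limits was not computed, so whether 5 of 10 is unusual is not known. In neutrophils 20.8% of all genes were at least 2-fold higher. The log2 ratio of *Jun* was 0.95 in neutrophils and -2.15 in DCs, and that of *Egr1* was 0.84 and -2.10 in the same cell types. *Junb* had 0.94 in neutrophils and -1.02 in VSMCs, *Ier2* 0.82 in neutrophils and -0.72 in pericytes, and *Ier3* 2.06 in neutrophils and -0.84 in LECs. The differences between cell types were not tested, since each condition had 1 library. Control neutrophils were 99 cells and Control DCs 36 cells, 1 of which held 33 of the 78 *Jun* and 20 of the 70 *Egr1* UMIs of that pool, and the median depth of neutrophils was 2739 (Control) and 1266 UMIs (AngII+HS).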

How the results depend on the processing

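The main counts were 1 higher and 22 lower pairs of gene and cell type, with a median log2 ratio of the summed genes of -0.48 over cell types. The median was below 0 under each alternative run. Of the 110 pairs, 74 kept their direction in each alternative in which they could be computed, and so did 23 of the 23 called pairs. Without doublet removal there were 3 higher pairs and a median of -0.58, and with double the number removed 2 and -0.37. The stricter cell filter gave 2 higher pairs and -0.42, and TMM factors 4 higher pairs and -0.25. Merging without integration left 9 cell types to compare, with 2 higher and 6 lower pairs and -0.22. Of the 16 called pairs that could be computed there, 7 stayed at least 2-fold. The share of all genes at least 2-fold lower in that setting was not computed. Equal weight per cell gave 2 higher pairs and -0.34, and cells under 3% mitochondrial UMIs 2 higher and 14 lower pairs. Thinning to 1000 UMIs, as the mean of 10 random draws, gave 2 higher pairs and -0.34. Single draws gave 1 to 4 higher and 15 to 17 lower pairs and medians from -0.42 to -0.25, and the averaging was chosen after single draws had been seen to differ. The median was -0.42 when the 10 genes were among the variable genes or at resolution 0.4, -0.28 with cells of 2000 to 8000 UMIs and -0.35 with clusters weighted equally. Subtraction of the lowest CPM of any cell type gave 14 higher pairs and -0.54, since it leaves pools near 0. A limit of 1.5-fold gave 8 higher and 42 lower pairs, and the share of all genes past this limit was not computed. Chosen after the data were seen, subtraction of VSMC RNA gave 7 higher pairs and -0.44, and leaving out neutrophils and DCs gave 0 higher pairs, by construction. Without the cell with most UMIs of a gene in each pool, also chosen after the data were seen, there were 3 higher pairs and a median of -0.31. The pericyte type, the DC type or both fell below 30 cells or lost their name in 7 alternatives and were then left out. VSMC pools shrank too, from 5464 Control and 888 AngII+HS cells. The stricter cell filter left 2017 and 285 named VSMCs, and double the number of doublets removed left 2201 and 422. Many other Control cells were then in unnamed clusters (3118 and 3298 in these 2 settings). Resolution 1.2, scaling without mitochondrial UMIs, at least 50 expected UMIs and no expression filter left the counts within 1.5-fold and the median, where computed, within its interval. No paired analysis was possible because each condition had 1 library. The smallest Control pools were those of DCs (161036 UMIs), neutrophils (271704) and B cells (340506).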
